A study of Arabidopsis thaliana with 9 samples.

Results

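The 69 genes described here are genes of the Arabidopsis thaliana chloroplast genome that one single-gene probe set of an Affymetrix ATH1 array measured. They were taken as every probe set annotated to exactly 1 gene whose locus lies on the plastid genome, which gave 1 probe set for each gene, so that no choice between probe sets was needed. They are 69 of the 13356 genes with such a probe set and 69 of the 22746 probe sets tested, and RefSeq lists 85 protein-coding plastid genes. By symbol stem they comprise 15 psb genes (photosystem II), 5 psa genes (photosystem I), 6 pet genes (cytochrome b6f complex), 6 atp genes (ATP synthase), 10 ndh genes (NADH dehydrogenase-like complex), 7 rpl and 8 rps genes (large and small ribosomal subunits), 4 rpo genes (the plastid-encoded RNA polymerase) and 8 others, which are rbcL, accD, matK, clpP, ccsA, cemA, ycf3 and ycf4.

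The study asked how loss of a receptor and loss of its candidate ligands change the transcriptome of the developing inflorescence. Total RNA came from inflorescence tips, which another label field calls flower buds, 33 days after germination, from plants on soil in continuous light with no treatment. The 3 genotypes, all in the Col-0 background, were WT, the er-2 mutant of the ERECTA receptor kinase (stated to be allelic to er-106) and the epfl4 epfl6 double mutant, which carries mutant alleles for 2 secreted EPFL peptides. Each had 3 arrays labelled as biological replicates. The labels do not say how many plants went into each RNA sample, and no single-gene probe set for ER, EPFL4 or EPFL6 was listed in the annotation used, so the genotypes were not checked on the mutated genes. In such bulk tissue, fewer chloroplast-rich cells and less chloroplast RNA per cell cannot be told apart.

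The chloroplast genome descends from that of a cyanobacterium and keeps genes for the cores of the photosynthetic complexes and for part of its own transcription and translation machinery, while the nucleus encodes the remaining subunits. Most of its genes lie in operons, whose long transcripts are cut, spliced and trimmed by nuclear-encoded proteins. A bacterial-type polymerase (PEP), built on the rpo products, transcribes mainly photosynthesis genes, and nuclear-encoded phage-type polymerases (NEP) transcribe others, the rpoB operon among them. Plastid messengers lack the stable poly(A) tails of nuclear messengers, whereas the labelling kit named in the sample protocols starts from the poly(A) end. The share of each plastid RNA that was labelled is therefore unknown, and a signal here is compared between arrays for one gene and never between genes.

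Values are deposited log2 signals, and a difference is a log2 difference with its standard error (SE). A gene is called where the adjusted p of the fit over all probe sets is below 0.05. Every one of the 69 genes read above the lower quartile of its array on all 9 arrays (quartiles of 3.22 to 3.33), and 60 read above the upper quartile (7.41 to 7.44) on all 9. Over all probe sets, arrays of one genotype correlated at 0.995 to 0.997 and arrays of different genotypes at 0.982 to 0.991. Over the chloroplast genes the same ranges were 0.953 to 0.993 and 0.953 to 0.990.

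Most chloroplast genes had their highest mean in er-2, and, counted separately, most had their lowest in epfl4 epfl6. Fewer genes showed both together, and the differences passed the test in a minority of the genes. Against WT, 15 of the 69 genes rose in er-2 and 0 fell, at 21.7% called beside 20.8% of all probe sets, and the share called higher was 21.7% beside 11.8%. For falls in er-2 the background was 9.01%, and at an unadjusted p under 0.05 the limma fit also gave 0 lower, with 21 higher. In epfl4 epfl6, 18 genes were called against WT, 5 of them higher and 13 lower, which is 26.1% beside 33.9% of all probe sets. For each direction in epfl4 epfl6 the background was 17.9% higher and 16% lower, beside 7.25% and 18.8% of the chloroplast genes. The share called in epfl4 epfl6 was thus below the background for both directions together and for rises. For falls it was near the background and slightly above it. Between the mutants, 20 genes were higher in er-2 than in epfl4 epfl6 and 0 lower (also 0 lower, and 27 higher, at an unadjusted p under 0.05), at 29.0% beside 20.2% of all probe sets called, 10.2% higher and 10% lower.

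Median log2 differences ran the same way. The median chloroplast gene stood at 0.13 in er-2 against WT, where the median of all probe sets was 0.01. In epfl4 epfl6 against WT the medians were -0.11 and -0.00, and in er-2 against epfl4 epfl6 they were 0.26 and 0.02. Scaling moved the chloroplast medians without turning their sign, to 0.07, -0.19 and 0.28 after quantile normalization and 0.15, -0.06 and 0.23 after median centring. The mean of er-2 was the highest of the 3 genotypes in 51 of the 69 genes (73.9%, beside 31.6% of all probe sets), and that of epfl4 epfl6 the lowest in 43 (62.3%, beside 38.4%). Averaged over the 69 genes, the WT arrays read 10.04, 9.95 and 9.83, the er-2 arrays 10.10, 9.86 and 10.37, and the epfl4 epfl6 arrays 9.64, 9.98 and 9.92. These averages overlapped between all 3 genotypes, with means of 9.94 ± 0.10, 10.11 ± 0.25 and 9.84 ± 0.18 (SD, n = 3). Arrays lay fully apart between er-2 and WT in 23 genes (33.3%, beside 36.1% of all probe sets), between epfl4 epfl6 and WT in 23 (33.3%, beside 44.4%) and between the mutants in 31 (44.9%, beside 36.5%).

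Measures of the RNA itself moved with genotype. The 3' minus 5' difference of the array's control transcripts was 2.45 ± 0.138 in WT, 2.13 ± 0.0810 in er-2 and 1.67 ± 0.0507 in epfl4 epfl6 (SD, n = 3; exact permutation p = 0.00357, the smallest that 280 groupings allow). The 25S ribosomal RNA control read 11.84 ± 0.0274, 11.84 ± 0.105 and 11.30 ± 0.150 (exact permutation p = 0.0357). With the 3' minus 5' difference as a covariate, limma called 0 of the 69 genes in each of the 3 comparisons, while 14, 0 and 3 had an unadjusted p under 0.05 in er-2, in epfl4 epfl6 (each against WT) and between the mutants. The standard errors then grew by a median factor of 1.94, 4.17 and 2.59, and the median difference of epfl4 epfl6 against WT became 0.22. Genotype and this difference cannot be told apart on 9 arrays, and this holds for every call below.

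**Figure D1:**
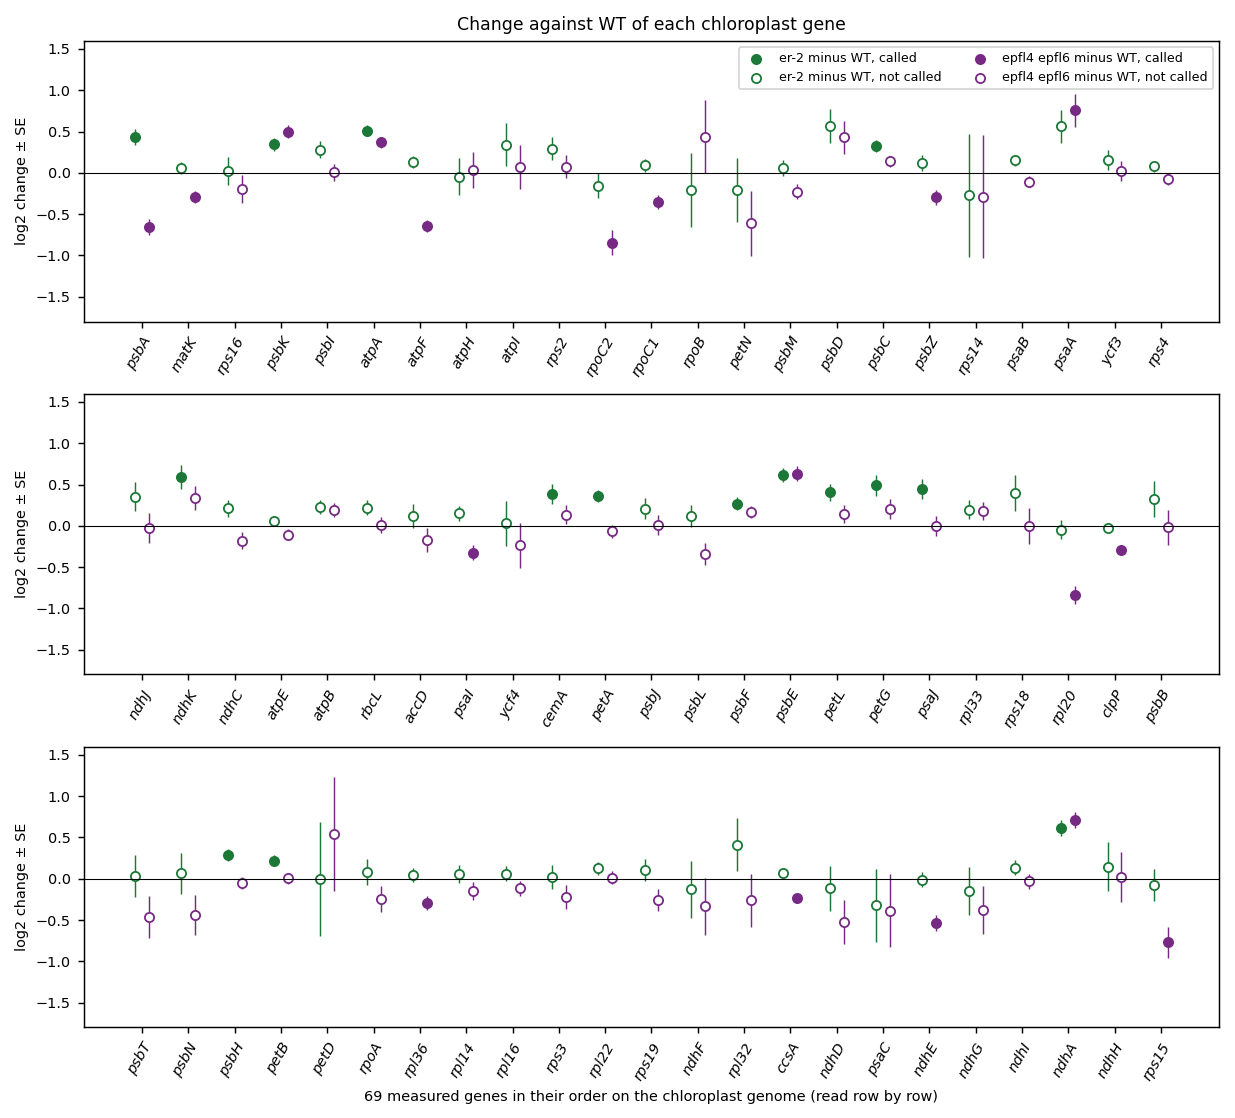
Log2 differences with their standard errors for the 69 chloroplast genes, in the order of their start positions along the plastid genome (x axis, gene symbols), for each mutant against WT; filled points are called at an adjusted p below 0.05. In er-2 the called points all lie above 0 (15 genes), and in epfl4 epfl6 they lie on both sides (5 above, 13 below).

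Genes of photosystem II, the complex that splits water, supplied 6 of the 15 rises in er-2 from 15 measured, with a median of 0.28. In epfl4 epfl6, 2 psb genes rose and 2 fell, with a median of -0.02. For these counts and those of each stem below, 11.8% of all probe sets were called higher in er-2. In epfl4 epfl6 the shares of all probe sets were 17.9% higher and 16% lower. psbA, which encodes the D1 reaction-centre protein, moved in opposite directions in the mutants. psbA (ArthCp002) read 11.34, 11.54 and 11.42 on the WT arrays, 11.77, 11.77 and 12.07 on the er-2 arrays and 10.72, 10.89 and 10.72 on the epfl4 epfl6 arrays. The 3 genotypes did not overlap, with er-2 above WT and WT above epfl4 epfl6. psbA rose by 0.44 ± 0.095 in er-2 (1.35-fold, adjusted p = 0.0101). psbA fell by 0.66 ± 0.095 in epfl4 epfl6 (1.58-fold, adjusted p = 0.000608). The gap between er-2 and epfl4 epfl6 was 1.09 ± 0.095 (2.13-fold, adjusted p = 0.000118).

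psbE encodes the alpha subunit of cytochrome b559 and psbK a small photosystem II subunit. psbE (ArthCp039) gave signals of 9.72, 9.64 and 9.38 on the WT arrays, 10.23, 10.09 and 10.27 on the er-2 arrays and 10.17, 10.20 and 10.26 on the epfl4 epfl6 arrays. psbK (ArthCp005) gave signals of 10.88, 10.95 and 10.79 on the WT arrays, 11.21, 11.25 and 11.19 on the er-2 arrays and 11.32, 11.26 and 11.54 on the epfl4 epfl6 arrays. In both genes every array of either mutant lay above every WT array. psbE rose by 0.61 ± 0.090 in er-2 (1.53-fold, adjusted p = 0.00124). psbE rose by 0.63 ± 0.090 in epfl4 epfl6 (1.55-fold, adjusted p = 0.000564). psbK rose by 0.34 ± 0.079 in er-2 (1.27-fold, adjusted p = 0.0123). psbK rose by 0.50 ± 0.079 in epfl4 epfl6 (1.41-fold, adjusted p = 0.000959). psbE in er-2 and in epfl4 epfl6 differed by -0.01 ± 0.090, with overlapping arrays. psbH, a small phosphoprotein of the same complex, was called in er-2 and not in epfl4 epfl6 against WT. psbH (ArthCp052) gave signals of 9.08, 9.12 and 9.07 on the WT arrays, 9.24, 9.44 and 9.46 on the er-2 arrays and 9.02, 9.01 and 9.09 on the epfl4 epfl6 arrays. The er-2 arrays lay above all others, and the WT and epfl4 epfl6 arrays overlapped. psbH rose by 0.29 ± 0.070 in er-2 (1.22-fold, adjusted p = 0.0155). The difference of epfl4 epfl6 from WT was -0.05 ± 0.069 for psbH, and er-2 stood above epfl4 epfl6 by 0.34 ± 0.069 (adjusted p = 0.00798).

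The remaining photosystem II calls were psbC (the CP43 antenna protein, 0.33) and psbF (the beta subunit of cytochrome b559, 0.27) in er-2, and psbZ at -0.30 in epfl4 epfl6. psbL and psbZ were both higher in er-2 than in epfl4 epfl6, by 0.47 and 0.41. These 4 genes, and the other genes named outside the fixed rule, were picked after their values were seen. psbD, the D2 partner of D1, had 0.57 in er-2 and 0.43 in epfl4 epfl6 and was not called in either (adjusted p = 0.0763 and 0.134). All 15 psb genes had a positive difference in er-2, from 0.03 (psbT) to 0.61 (psbE).

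In photosystem I, 1 of 5 genes rose in er-2, and 1 rose and 1 fell in epfl4 epfl6. psaA and psaB encode the paired core proteins, and psaI and psaJ small membrane subunits. psaA (ArthCp022) measured 6, 5.93 and 5.41 on the WT arrays, 6.38, 5.97 and 6.68 on the er-2 arrays and 6.34, 6.76 and 6.51 on the epfl4 epfl6 arrays. psaA in er-2 differed from WT by 0.57 ± 0.20 and was not called (adjusted p = 0.075). psaA rose by 0.76 ± 0.20 in epfl4 epfl6 (1.69-fold, adjusted p = 0.0149). Arrays of epfl4 epfl6 all lay above WT, while er-2 overlapped both. psaB (ArthCp021) read 12.42, 12.38 and 12.29 on the WT arrays, 12.52, 12.51 and 12.52 on the er-2 arrays and 12.17, 12.28 and 12.33 on the epfl4 epfl6 arrays. er-2 was above epfl4 epfl6 on every array of psaB, by 0.26 ± 0.062 (adjusted p = 0.0173), and neither mutant was called against WT (0.15 in er-2, -0.11 in epfl4 epfl6).

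psaI (ArthCp032) gave signals of 11.05, 11.17 and 11.04 on the WT arrays, 11.09, 11.23 and 11.39 on the er-2 arrays and 10.66, 10.87 and 10.76 on the epfl4 epfl6 arrays. All 3 epfl4 epfl6 arrays of psaI were below the others. psaI fell by 0.32 ± 0.087 in epfl4 epfl6 (1.25-fold, adjusted p = 0.0159). The gap between er-2 and epfl4 epfl6 was 0.47 ± 0.087 (adjusted p = 0.00475). psaJ (ArthCp042) measured 9.85, 9.95 and 9.64 on the WT arrays, 10.22, 10.34 and 10.21 on the er-2 arrays and 9.57, 9.78 and 10.07 on the epfl4 epfl6 arrays. The er-2 arrays of psaJ were above all others. psaJ rose by 0.45 ± 0.12 in er-2 (1.36-fold, adjusted p = 0.0299). psaJ in epfl4 epfl6 differed from WT by -0.00 ± 0.12.

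The cytochrome b6f complex, which passes electrons between the photosystems, is represented by 6 genes. Of these, 4 rose in er-2, and 1 to 3 did when any 1 WT or er-2 array was left out. No pet gene was called in epfl4 epfl6 against WT, and 0 of 6 had an unadjusted p under 0.05 there in limma. petA encodes cytochrome f, petB cytochrome b6, and petG and petL small subunits. petA (ArthCp035) gave signals of 10.54, 10.53 and 10.57 on the WT arrays, 10.83, 10.98 and 10.92 on the er-2 arrays and 10.33, 10.58 and 10.52 on the epfl4 epfl6 arrays. petB (ArthCp053) measured 11.71, 11.61 and 11.61 on the WT arrays, 11.90, 11.82 and 11.86 on the er-2 arrays and 11.55, 11.68 and 11.70 on the epfl4 epfl6 arrays. In both, er-2 stood above the other genotypes, which overlapped each other. petA rose by 0.36 ± 0.074 in er-2 (1.29-fold, adjusted p = 0.00682). petB rose by 0.22 ± 0.064 in er-2 (1.16-fold, adjusted p = 0.036). petG (ArthCp041) gave signals of 7.66, 7.79 and 7.69 on the WT arrays, 8.13, 7.97 and 8.51 on the er-2 arrays and 7.80, 8.03 and 7.92 on the epfl4 epfl6 arrays. petL (ArthCp040) read 9.08, 9.23 and 9.05 on the WT arrays, 9.59, 9.40 and 9.58 on the er-2 arrays and 9.04, 9.45 and 9.30 on the epfl4 epfl6 arrays. For petG and petL the er-2 arrays lay above WT and overlapped those of epfl4 epfl6. petG rose by 0.49 ± 0.12 in er-2 (1.40-fold, adjusted p = 0.0205). petL rose by 0.40 ± 0.11 in er-2 (1.32-fold, adjusted p = 0.0231).

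petL, petG and psaJ are neighbours read as one operon, and all 3 rose in er-2, by 0.40, 0.49 and 0.45. The same 3 genes differed from WT by 0.14, 0.21 and -0.00 in epfl4 epfl6 and were not called. The other pet genes, petN and petD, varied between arrays of one genotype and are described with the variable genes.

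**Figure D2:**
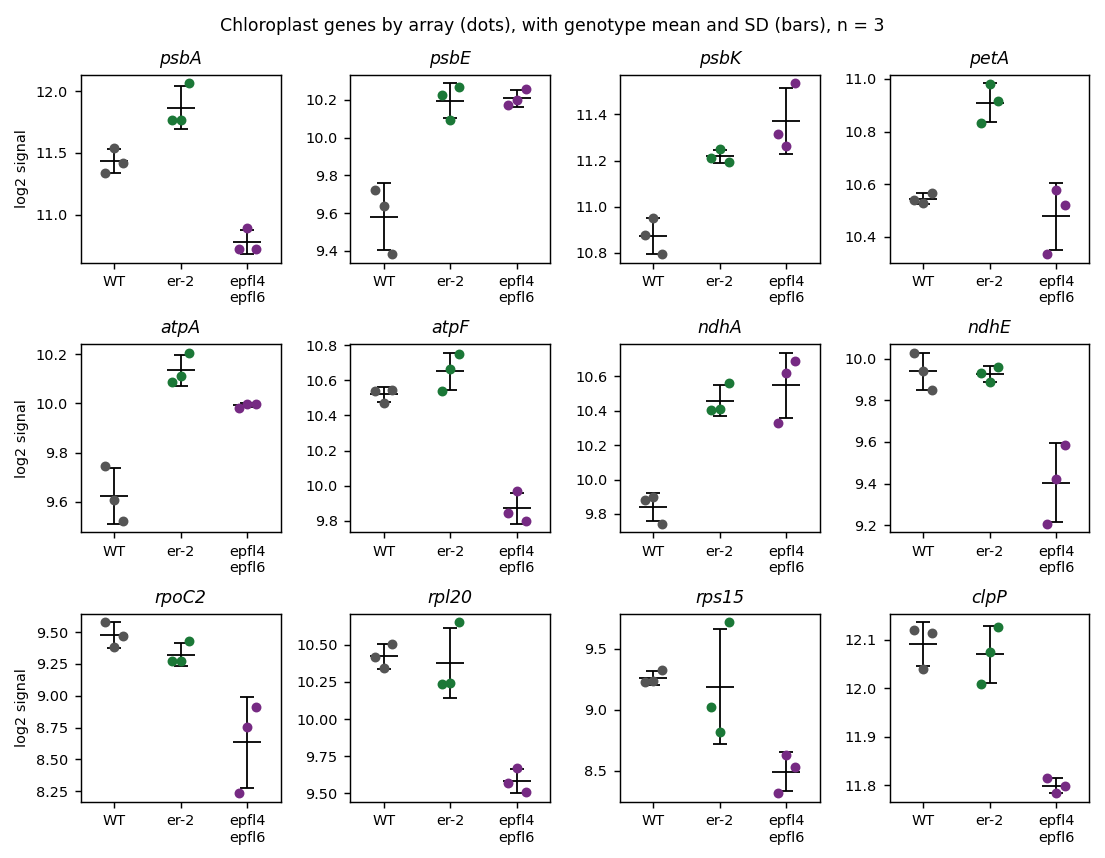
Log2 signal of 12 chloroplast genes on each of the 9 arrays (points, 3 per genotype), with the genotype mean and SD as bars; every panel has its own y axis, so levels are not comparable between genes. psbA differs between all 3 genotypes, psbE, psbK, atpA and ndhA lie above WT in both mutants, and atpF, rpoC2 and rpl20 lie lowest in epfl4 epfl6.

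Of 6 atp genes, which encode ATP synthase subunits, 1 rose in er-2, and in epfl4 epfl6 1 rose and 1 fell. atpA encodes the catalytic-head alpha subunit and atpF a subunit of the stalk that holds the head to the membrane. atpA (ArthCp007) read 9.75, 9.61 and 9.52 on the WT arrays, 10.09, 10.11 and 10.21 on the er-2 arrays and 9.98, 9.999 and 9.998 on the epfl4 epfl6 arrays. atpF (ArthCp008) measured 10.54, 10.47 and 10.55 on the WT arrays, 10.54, 10.67 and 10.75 on the er-2 arrays and 9.85, 9.97 and 9.80 on the epfl4 epfl6 arrays. atpA lay above WT on every array of both mutants, and atpF lay below all other arrays in epfl4 epfl6. atpA rose by 0.51 ± 0.069 in er-2 (1.42-fold, adjusted p = 0.000773). atpA rose by 0.37 ± 0.069 in epfl4 epfl6 (1.29-fold, adjusted p = 0.00244). atpF fell by 0.65 ± 0.072 in epfl4 epfl6 (1.57-fold, adjusted p = 0.000145).

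atpF in er-2 differed from WT by 0.13 ± 0.072 (adjusted p = 0.25). Although atpA and atpF follow each other in the large atp operon, they were called in opposite directions in epfl4 epfl6. Its other measured genes, rps2, atpI and atpH, were not called. The beta and epsilon subunit genes, atpB and atpE, form a second operon. atpB (ArthCp029) gave signals of 12.65, 12.78 and 12.51 on the WT arrays, 12.89, 12.84 and 12.91 on the er-2 arrays and 12.73, 12.80 and 12.99 on the epfl4 epfl6 arrays. atpE (ArthCp028) gave signals of 13.14, 13.14 and 13.09 on the WT arrays, 13.17, 13.21 and 13.16 on the er-2 arrays and 12.92, 12.98 and 13.14 on the epfl4 epfl6 arrays. Neither was called in any comparison, with differences in er-2 of 0.23 ± 0.088 and 0.06 ± 0.065.

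Among 10 ndh genes, which encode the complex that feeds electrons back around photosystem I, 2 rose in er-2, and 1 rose and 1 fell in epfl4 epfl6. ndhA (ArthCp079) gave signals of 9.88, 9.90 and 9.74 on the WT arrays, 10.40, 10.41 and 10.56 on the er-2 arrays and 10.33, 10.62 and 10.69 on the epfl4 epfl6 arrays. ndhE (ArthCp076) measured 10.03, 9.94 and 9.85 on the WT arrays, 9.93, 9.89 and 9.96 on the er-2 arrays and 9.21, 9.42 and 9.59 on the epfl4 epfl6 arrays. ndhA lay above WT in both mutants, and ndhE was lowest in epfl4 epfl6 while WT and er-2 overlapped. ndhA rose by 0.62 ± 0.097 in er-2 (1.53-fold, adjusted p = 0.00184). ndhA rose by 0.71 ± 0.097 in epfl4 epfl6 (1.63-fold, adjusted p = 0.000454). ndhE fell by 0.53 ± 0.093 in epfl4 epfl6 (1.45-fold, adjusted p = 0.00166).

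ndhA and ndhE belong to the same operon, with ndhI at -0.03 and ndhG at -0.38 (neither called) between them in epfl4 epfl6. ndhK (ArthCp026) measured 7.63, 7.53 and 7.51 on the WT arrays, 8.16, 7.79 and 8.5 on the er-2 arrays and 7.86, 7.99 and 7.85 on the epfl4 epfl6 arrays. ndhC (ArthCp027) read 10.64, 10.73 and 10.45 on the WT arrays, 10.81, 10.77 and 10.87 on the er-2 arrays and 10.24, 10.40 and 10.64 on the epfl4 epfl6 arrays. For both, er-2 lay above WT on every array. ndhK rose by 0.59 ± 0.14 in er-2 (1.51-fold, adjusted p = 0.0168). ndhC in er-2 was 0.21 ± 0.10 above WT and not called (adjusted p = 0.19). ndhC was higher in er-2 than in epfl4 epfl6 by 0.39 ± 0.10 (adjusted p = 0.0251).

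The ribosomal and polymerase genes gave other counts. Of the 19 rpl, rps and rpo genes, 0 were called in er-2 against WT, and 0 had an unadjusted p under 0.05 in limma, at a median of 0.06. In epfl4 epfl6, 5 of the 19 fell (26.3%, beside 16% of all probe sets) and none rose (beside 17.9%), with a median of -0.22. Of the 26 psa, psb and pet genes, 11 rose in er-2 (42.3%, beside 11.8% of all probe sets), and 3 rose and 3 fell in epfl4 epfl6. With other poolings the share was lower, at 7 of 20 psa and psb genes (35%) and 7 of 22 pet, atp and ndh genes (31.8%). These pooled sets were not part of the fixed grouping by symbol stem. The difference between these sets of genes was not tested.

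rpoC2 and rpoC1 encode the beta'' and beta' subunits of the plastid RNA polymerase. rpoC2 (ArthCp012) gave signals of 9.58, 9.38 and 9.47 on the WT arrays, 9.27, 9.27 and 9.43 on the er-2 arrays and 8.24, 8.75 and 8.91 on the epfl4 epfl6 arrays. rpoC1 (ArthCp013) read 10.39, 10.41 and 10.54 on the WT arrays, 10.41, 10.64 and 10.56 on the er-2 arrays and 9.98, 10.21 and 10.08 on the epfl4 epfl6 arrays. Both were lower in epfl4 epfl6 on every array than in WT or er-2. rpoC2 fell by 0.84 ± 0.15 in epfl4 epfl6 (1.79-fold, adjusted p = 0.00173). rpoC1 fell by 0.36 ± 0.082 in epfl4 epfl6 (1.28-fold, adjusted p = 0.0077). In er-2 they differed from WT by -0.15 ± 0.15 and 0.09 ± 0.082. rpoB (ArthCp014) gave signals of 6.55, 5.50 and 5.53 on the WT arrays, 5.90, 4.87 and 6.19 on the er-2 arrays and 5.51, 7.04 and 6.35 on the epfl4 epfl6 arrays. rpoA (ArthCp055) read 11.64, 11.68 and 11.46 on the WT arrays, 11.54, 11.52 and 11.97 on the er-2 arrays and 11.01, 11.49 and 11.52 on the epfl4 epfl6 arrays. rpoB, first in the operon of rpoC1 and rpoC2 and encoding the beta subunit, and rpoA, the alpha subunit in another operon, overlapped between all genotypes and were not called.

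Of the 7 rpl genes, 2 fell in epfl4 epfl6. rpl20 (ArthCp045) read 10.42, 10.34 and 10.51 on the WT arrays, 10.24, 10.24 and 10.65 on the er-2 arrays and 9.57, 9.67 and 9.51 on the epfl4 epfl6 arrays. rpl36 (ArthCp057) gave signals of 10.88, 10.85 and 10.98 on the WT arrays, 10.88, 10.84 and 11.12 on the er-2 arrays and 10.53, 10.72 and 10.56 on the epfl4 epfl6 arrays. The epfl4 epfl6 arrays were the lowest for both ribosomal protein genes. rpl20 fell by 0.84 ± 0.11 in epfl4 epfl6 (1.79-fold, adjusted p = 0.00034). rpl36 fell by 0.30 ± 0.087 in epfl4 epfl6 (1.23-fold, adjusted p = 0.0255). rpl32 (ArthCp072) read 10.25, 10.45 and 9.38 on the WT arrays, 10.37, 10.42 and 10.53 on the er-2 arrays and 9.06, 9.91 and 10.32 on the epfl4 epfl6 arrays. rpl14 (ArthCp059) read 11.28, 11.19 and 11.19 on the WT arrays, 11.19, 11.18 and 11.47 on the er-2 arrays and 10.85, 11.12 and 11.23 on the epfl4 epfl6 arrays. rpl32 and rpl14 were not called in any comparison, at -0.26 ± 0.32 and -0.15 ± 0.11 in epfl4 epfl6. rpl36 and rpl14 lie in the long operon of ribosomal protein genes that ends in rpoA, of which 7 genes were measured and rpl36 alone was called.

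Among 8 rps genes only rps15 was called. rps15 (ArthCp081) measured 9.23, 9.23 and 9.33 on the WT arrays, 9.03, 8.82 and 9.72 on the er-2 arrays and 8.32, 8.63 and 8.53 on the epfl4 epfl6 arrays. Its epfl4 epfl6 arrays were below all others, and the er-2 arrays spread around WT. rps15 fell by 0.77 ± 0.19 in epfl4 epfl6 (1.7-fold, adjusted p = 0.0111). rps19 (ArthCp063) read 10.98, 10.99 and 10.94 on the WT arrays, 10.97, 11.04 and 11.21 on the er-2 arrays and 10.38, 10.79 and 10.99 on the epfl4 epfl6 arrays. rps4 (ArthCp024) read 12.35, 12.39 and 12.33 on the WT arrays, 12.39, 12.39 and 12.52 on the er-2 arrays and 12.15, 12.33 and 12.36 on the epfl4 epfl6 arrays. rps2 (ArthCp011) gave signals of 9.22, 9.04 and 9.03 on the WT arrays, 9.28, 9.21 and 9.69 on the er-2 arrays and 8.92, 9.33 and 9.26 on the epfl4 epfl6 arrays. For rps19, rps4 and rps2 the WT and epfl4 epfl6 arrays overlapped, at -0.25 ± 0.13, -0.08 ± 0.071 and 0.07 ± 0.14. None of the 3 was called in er-2 either, with differences of 0.10, 0.08 and 0.29.

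Of the 8 genes with other roles, 3 fell in epfl4 epfl6 and 1 rose in er-2. clpP encodes a subunit of the stromal Clp protease, ccsA a protein for haem attachment to c-type cytochromes, and matK an intron maturase. clpP (ArthCp048) read 12.12, 12.04 and 12.11 on the WT arrays, 12.01, 12.08 and 12.13 on the er-2 arrays and 11.82, 11.78 and 11.80 on the epfl4 epfl6 arrays. ccsA (ArthCp073) read 11.22, 11.22 and 11.28 on the WT arrays, 11.25, 11.28 and 11.38 on the er-2 arrays and 10.97, 11.05 and 10.98 on the epfl4 epfl6 arrays. matK (ArthCp003) gave signals of 11.24, 11.28 and 11.20 on the WT arrays, 11.28, 11.23 and 11.40 on the er-2 arrays and 10.83, 10.99 and 11.04 on the epfl4 epfl6 arrays. In all 3 the epfl4 epfl6 arrays were below every WT and er-2 array, and WT and er-2 overlapped. clpP fell by 0.29 ± 0.057 in epfl4 epfl6 (1.22-fold, adjusted p = 0.00302). ccsA fell by 0.24 ± 0.059 in epfl4 epfl6 (1.18-fold, adjusted p = 0.0109). matK fell by 0.29 ± 0.072 in epfl4 epfl6 (1.22-fold, adjusted p = 0.0115). cemA (ArthCp034) measured 9.55, 9.65 and 9.60 on the WT arrays, 9.87, 9.83 and 10.26 on the er-2 arrays and 9.65, 9.91 and 9.64 on the epfl4 epfl6 arrays. cemA, which encodes an envelope membrane protein, was above WT on all er-2 arrays. cemA rose by 0.39 ± 0.12 in er-2 (1.31-fold, adjusted p = 0.042). rbcL, the large subunit of Rubisco, was not called, at 0.22 ± 0.095 in er-2 (95% interval 0.01 to 0.43) and 0.01 ± 0.095 in epfl4 epfl6 (-0.20 to 0.23). accD, for fatty acid synthesis, was at 0.11 ± 0.14 and -0.17 ± 0.14 and was not called either.

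Seen across both comparisons, psbK, atpA, psbE and ndhA were higher than WT in each mutant, and psbA was higher in er-2 and lower in epfl4 epfl6. Both comparisons share the WT arrays. Higher calls in both were made for 5.80% of the chloroplast genes and 7.85% of all probe sets, and the pattern of psbA for 0.224% of all probe sets. In all, 31 genes (44.9%) were called in at least 1 comparison, near the 42.5% of all probe sets, and 38 in none. Of the 20 genes higher in er-2 than in epfl4 epfl6, 13 had fallen in epfl4 epfl6 against WT and 5 had risen in er-2 (psbA in both counts), and 3 (psaB, ndhC and psbL) were called between the mutants alone.

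Grouped by polymerase, 11 of the 27 genes read mainly by the bacterial-type polymerase rose in er-2 (40.7%, beside 11.8% of all probe sets), at a median of 0.27. In epfl4 epfl6, 3 of these 27 rose and 3 fell, at a median of -0.00, so that 22.2% were called there, below the 33.9% of all probe sets. The 26 pooled psa, psb and pet genes above gave the same counts called against WT in both mutants. This class is therefore largely that pool again and is not a separate result. The 4 measured genes read mainly by the phage-type polymerases are accD, rpoB, rpoC1 and rpoC2. None of the 4 was called in er-2 (median -0.03), and rpoC1 and rpoC2 fell in epfl4 epfl6. Of 9 intron-containing genes, a list drawn up after values were seen, ndhA and petB rose in er-2, and in epfl4 epfl6 ndhA rose while atpF, clpP and rpoC1 fell (backgrounds of 11.8% higher in er-2, and 17.9% higher and 16% lower in epfl4 epfl6).

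Genes of one operon differed in their calls in epfl4 epfl6. In the psbE operon, psbE stood at 0.63, psbF at 0.17, psbJ at 0.01 and psbL at -0.34, with psbE alone called. In the psbD operon, psbD stood at 0.43 (95% interval -0.02 to 0.88), psbC at 0.14 and psbZ at -0.30, with psbZ alone called. psbK stood at 0.50 beside psbI at 0.01. In the rpoB operon, rpoC1 at -0.36 and rpoC2 at -0.84 were called. rpoB stood at 0.44 and was not called, and its 95% interval of -0.55 to 1.43 leaves its direction unknown. Differences between neighbours were not tested.

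Signals of many chloroplast genes varied more between arrays of one genotype than those of other genes. The median residual SD, the spread left after the genotype means, was 0.165 for the chloroplast genes and 0.103 for all probe sets. In 23 of the 69 (33.3%) it lay above the 95th percentile of all probe sets, which is 0.230, from rpoA at 0.231 to rps14 at 1.16, and rpoC2 lay just below at 0.218. These 23 are 5 ndh, 4 psb, 4 rps, 2 psa, 2 pet, 2 atp and 2 rpo genes with rpl32 and ycf4. They were set apart by their spread after values were seen and are described without a test.

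petD, which encodes subunit IV of the cytochrome b6f complex, and rps14 varied most. petD (ArthCp054) gave signals of 7.69, 6.76 and 6.69 on the WT arrays, 7.62, 5.23 and 8.28 on the er-2 arrays and 6.73, 8.29 and 7.74 on the epfl4 epfl6 arrays. rps14 (ArthCp020) gave signals of 8.03, 7.16 and 7.09 on the WT arrays, 7.62, 5.13 and 8.72 on the er-2 arrays and 6.52, 7.81 and 7.09 on the epfl4 epfl6 arrays. In both, er-2 replicate 2 was the lowest array of all and er-2 replicate 3 the highest or nearly so. The difference of er-2 from WT was -0.00 for petD, with a 95% interval from -1.55 to 1.55, and -0.27 for rps14, from -1.94 to 1.40. psaC (ArthCp075) gave signals of 8.64, 8.37 and 8.47 on the WT arrays, 8.504, 6.90 and 9.11 on the er-2 arrays and 7.85, 8.40 and 8.06 on the epfl4 epfl6 arrays. psaC, the iron-sulfur subunit of photosystem I, had the same lowest and highest arrays, and its interval ran from -1.31 to 0.67. petN (ArthCp015) measured 8.87, 8.81 and 8.496 on the WT arrays, 8.49, 7.63 and 9.43 on the er-2 arrays and 7.77, 8.68 and 7.90 on the epfl4 epfl6 arrays. petN, a small cytochrome b6f subunit, again had its lowest er-2 array in replicate 2 and its highest in replicate 3, with an interval from -1.08 to 0.66. These 4 intervals reach beyond the largest difference called in er-2 against WT, which was 0.62 (ndhA).

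The same arrays stood out across the 23 genes. er-2 replicate 2 was the lowest er-2 array in 21, er-2 replicate 3 the highest in 22, and epfl4 epfl6 replicate 1 the lowest of its genotype in 21. All 3 features held together in 18 of the 23 and in 15 of the other 46 chloroplast genes. They did so in 15.5% of the 1138 probe sets above the same percentile and in 5.89% of all probe sets. Averaged over the 23, the er-2 arrays read 8.66, 7.96 and 9.16, and over the other 46 they read 10.82, 10.81 and 10.97. Only 2 of the 23, psaA and rps15, were called in any comparison.

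The 5S ribosomal RNA control also read lowest on er-2 replicate 2 and epfl4 epfl6 replicate 1. Its signals were 6.57, 6.23 and 6.15 in WT, 6.35, 4.998 and 6.23 in er-2 and 5.41, 6.82 and 6.79 in epfl4 epfl6 (exact permutation p = 0.607 over the 3 genotypes). On er-2 replicate 3, where the 23 genes were highest, this control read 6.23, within the WT range. Its part in the chloroplast values was not tested.

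**Figure D3:**
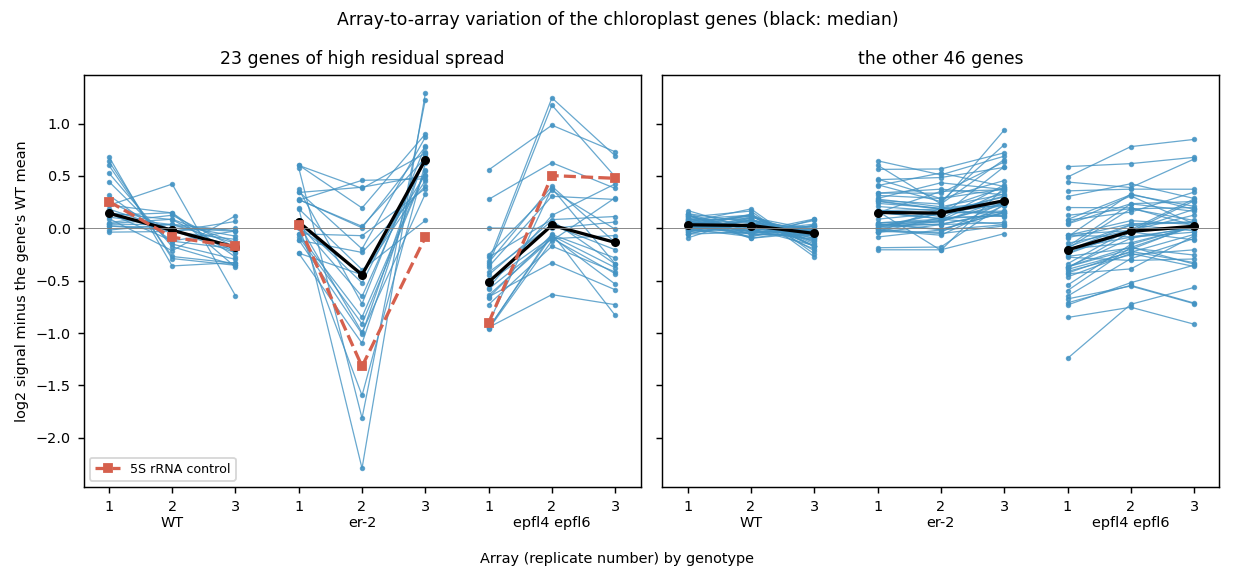
Log2 signal minus the gene's own WT mean on each of the 9 arrays (x axis, replicate numbers within genotypes, which have no order) for the 23 chloroplast genes of high spread (left) and the other 46 (right); each blue line joins the values of 1 gene, black is the median over genes and the red dashed line is the 5S ribosomal RNA control. On the left, er-2 replicate 2 is the lowest er-2 array for 21 of the 23 genes and er-2 replicate 3 the highest for 22.

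Counts depended on single arrays. Without er-2 replicate 2, 14 genes were higher in er-2 than in WT: 12 of the 15, with psaA and ndhH gained (0.75 and 0.58, adjusted p = 0.0274 and 0.0201) and psaJ, psbH and petB lost. Without WT replicate 3 only 8 were called, and without er-2 replicate 1 or replicate 3 only 9. psbA, psbK, atpA, psbC, petA, psbE and ndhA kept their call in er-2 under all 13 alternatives other than the covariate and a minimum fold. Without WT replicate 3 the calls of ndhK, cemA, psbF, petL, petG, psaJ and petB ended. Without er-2 replicate 1 those of ndhK, cemA, psbF, petL, psaJ and petB ended, and without er-2 replicate 3 those of cemA, psbF, petL, psaJ, psbH and petB. WT replicate 1 decided cemA, petL, petG and psaJ, and WT replicate 2 decided ndhK, cemA, psbF and petB. Quantile normalization, a change of scaling alone, also ended the calls of cemA and petB. Adjusted p for these 8 genes reached 0.122 at most.

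In epfl4 epfl6 against WT, 14 of the 18 calls held under all 13 alternatives, and leaving out arrays gave 15 to 20 called. psaA lost its call without WT replicate 3 or epfl4 epfl6 replicate 2 (adjusted p up to 0.0565), psaI without WT replicate 2 or epfl4 epfl6 replicate 1 (up to 0.0614), psbZ without any WT array or epfl4 epfl6 replicate 1 or 2 (up to 0.126), and rpl36 without replicate 1 or 3 of either genotype (up to 0.0859). Median centring also ended the call of psbZ in epfl4 epfl6, and between the mutants those of psaB, psbL, psaJ and petB. Between the mutants, 12 of the 20 held under all 13, and 12 were called without epfl4 epfl6 replicate 1, which ended the calls of psbZ, psaB, ndhC, psbL, psaJ, petB, rpl36 and rps15. Among these, psaB, ndhC, psbL, psaJ and petB were also lost without er-2 replicate 1, psaB, psbL, psaJ and petB without er-2 replicate 2, and ndhC, psbL, psaJ, petB and rpl36 without er-2 replicate 3. Without epfl4 epfl6 replicate 2, ndhC, psbL, psaJ and petB were lost, and without its replicate 3 petB, rpl36 and rps15. Medians moved too: without epfl4 epfl6 replicate 1 the median difference of epfl4 epfl6 from WT was -0.00, and without er-2 replicate 3 the median of er-2 was 0.07.

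Nuclear genes for the same complexes were counted from lists fixed by symbol. Only a few listed genes had a single-gene probe set with a name here. Of 53 listed genes for photosystem and antenna proteins, 7 were measured, with 6 higher in er-2 and 5 higher in epfl4 epfl6. Of 50 for electron transport, ATP synthase and NDH, 6 were measured, with 6 higher in er-2 and 4 higher in epfl4 epfl6. Of 19 for carbon fixation, 3 were measured and 3 rose in each mutant. Over the 3 lists, 15 of 16 measured genes rose in er-2 and 12 of 16 in epfl4 epfl6, with none lower, beside 11.8% and 17.9% of all probe sets called higher. These lists hold LHCB4.1, PSAN and RCA, which earlier results of these data had shown raised, so their direction is not independent evidence.

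NdhL and NdhN encode nuclear subunits of the NDH complex. NdhL rose by 0.86 ± 0.078 in er-2 and 0.53 ± 0.078 in epfl4 epfl6, and NdhN by 0.56 ± 0.072 in er-2 and 0.68 ± 0.072 in epfl4 epfl6. ATPC1, the gamma subunit of the ATP synthase, rose by 0.50 ± 0.061 in er-2 and 0.37 ± 0.061 in epfl4 epfl6, beside the plastid atpA at 0.51 and 0.37 and atpF at 0.13 and -0.65. PSBY, a small photosystem II subunit, rose by 0.49 ± 0.091 in er-2 and 0.45 ± 0.091 in epfl4 epfl6. PSAN, a photosystem I subunit, rose by 0.40 ± 0.090 in er-2 and 0.40 ± 0.090 in epfl4 epfl6. PRK, phosphoribulokinase of the Calvin cycle, rose by 0.58 ± 0.080 in er-2 and 0.49 ± 0.080 in epfl4 epfl6. LHCB4.2, an antenna protein of photosystem II, stood 0.54 ± 0.11 above WT in er-2 (adjusted p = 0.00757), while epfl4 epfl6 differed by 0.01 ± 0.11. In epfl4 epfl6 the nuclear medians of the 3 lists were 0.22, 0.35 and 0.48, beside -0.11 for all 69 chloroplast genes. The plastid genes for the same complexes stood nearer 0, at -0.03 (psa and psb) and -0.01 (pet, atp and ndh). The difference between nuclear and plastid genes was not tested.

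**Figure D4:**
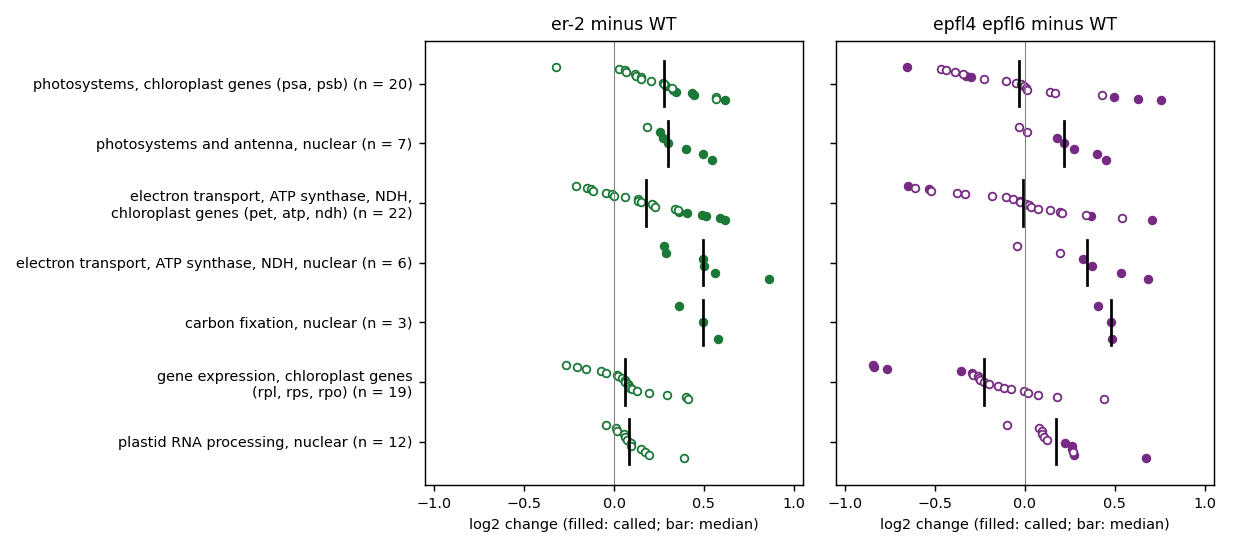
Log2 differences of each mutant from WT for plastid-encoded and nuclear-encoded gene groups; each point is 1 gene, the bar is the group's median, and filled points are called at an adjusted p below 0.05. Of the 16 nuclear photosynthesis genes 15 rose in er-2 and 12 in epfl4 epfl6, while plastid genes fell as well as rose in epfl4 epfl6.

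Nuclear genes that act on plastid RNA and proteins were counted in the same way. Of 52 listed for plastid RNA processing and stability, 12 were measured, and 5 rose in epfl4 epfl6 (17.9% of all probe sets did) and 0 in er-2 (1 higher and 0 lower at an unadjusted p under 0.05 in limma). CRR21, a pentatricopeptide repeat protein needed to edit an ndh transcript, differed by 0.39 ± 0.13 in er-2 (adjusted p = 0.0707) and rose by 0.67 ± 0.13 in epfl4 epfl6 (adjusted p = 0.00362). OTP84, another editing factor, and PAC, which acts in plastid RNA maturation, rose in epfl4 epfl6, each by 0.26. Of 38 genes listed for plastid transcription none was measured here, and of 32 for the plastid ribosome and translation 1 was (FUG1, at 0.16 and 0.07, not called). Of 32 listed regulators of chloroplast development 3 were measured. Among these, 2 were higher in epfl4 epfl6 and 1 in er-2, beside 17.9% and 11.8% of all probe sets. PORB, a chlorophyll biosynthesis enzyme, rose by 0.67 ± 0.11 in er-2 and 0.62 ± 0.11 in epfl4 epfl6.

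Genes listed as markers of the labelled tissue or of other tissues were counted as well. Of 5 measured anther and tapetum genes (10 listed), 4 were lower in epfl4 epfl6 and 3 in er-2, beside 16% and 9.01% of all probe sets. Of 3 measured guard-cell-lineage genes (5 listed), 2 were higher in epfl4 epfl6 and 1 in er-2, beside 17.9% and 11.8% of all probe sets. Of 17 genes listed for inflorescence and floral identity only SPL and CLV3 were measured, and neither was called against WT. SPL is also among the 5 anther and tapetum genes. CLV3 read 2.67 to 3.02, below the lower quartile of every array, so its lack of a call carries little information. Of 2 measured root genes (5 listed), PRX72 was called in both mutants, at 0.80 in epfl4 epfl6 and -0.35 in er-2. EXPA7 was called in neither, and read below the lower quartile except on epfl4 epfl6 replicate 3. The part of these marker genes in the chloroplast values was not tested.

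The mitochondrial genome, the other organelle genome on the array, gave 11 genes matched by symbol. In er-2 against WT 1 rose and 1 fell, and in epfl4 epfl6 1 rose and 3 fell, at medians of -0.06 and -0.35. The shares called in either direction, 18.2% and 36.4%, were near those of all probe sets, 20.8% and 33.9%. In epfl4 epfl6, 27.3% of the 11 were lower, beside 16% of all probe sets, and 9.09% higher, beside 17.9%. Between the mutants 3 of the 11 were higher in er-2 than in epfl4 epfl6 (27.3%, beside 10.2%) and 0 lower (beside 10%). Their median there was 0.24, beside 0.26 for the chloroplast genes. The difference between the organelles was not tested.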

How the data were processed

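Total RNA of 9 samples (3 genotypes, 3 replicates each) was labelled and hybridised to Affymetrix arrays. The deposited values are log2 signals, made by the authors with RMA, with limma also named, per the submitters' processing notes; the scanner files were not used here. After removal of 64 control probe sets, limma (3.58.1, R 4.3.3) fitted a mean per genotype to 22746 probe sets on all 9 arrays, with eBayes and Benjamini-Hochberg adjustment over all of them, two-sided, called below 0.05. On data simulated with independent normal noise, the fit recovered 67% of added changes of 0.5 log2 in er-2 and 60% in epfl4 epfl6. For added changes of 1 log2 it recovered 92% and 99%, with 9 and 4 false calls. The simulation held no variation shared between genes on one array, which the chloroplast genes show. Of the probe sets tested, 13513 carried 1 gene in the platform table, 503 several and 8730 were not listed, so nuclear lists are covered in part. RefSeq supplied locus tags and gene order.

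The chloroplast genes and all lists were chosen with earlier results of these data known. In each symbol stem the 4 genes with the smallest moderated F p over the genotypes are named with all array values, with the 5 largest non-overlapping rises and falls per comparison. Replicate numbers were not shown to pair arrays. Alternatives changed the scaling, filter, variance model, array weights, block, arrays, minimum fold and a control-transcript covariate. Precision is limited by the number of arrays, and p-values weigh each difference against the spread between these samples.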

Additional observations from a re-analysis of the deposited data

How the results depend on the processing

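Limits. With 3 arrays per genotype, the RNA quality index differs between genotypes and cannot be told apart from them. Every listed gene had 1 probe set, so the alternatives on the choice of probe set could not change a value and were not run. Counts of chloroplast genes called stood at 15 for er-2 and 18 for epfl4 epfl6 (each against WT) and 20 between the mutants. Requiring a 1.5-fold change left 3, 8 and 5, and over all probe sets 1136, 1888 and 813 of 4722, 7707 and 4587. The RNA quality covariate left 0 in each comparison, with 648, 1 and 66 over all probe sets, and moved the medians to 0.32, 0.22 and 0.0565. Under that covariate the difference of epfl4 epfl6 from WT changed sign for ccsA (0.0719), rps15 (0.66), rpoC1 (0.0484), rpl20 (0.0706) and rpl36 (0.41). That of er-2 from epfl4 epfl6 changed sign for rps15 (-0.15) and rpl36 (-0.0768). Such changes were looked up only for called genes named by the fixed rule. Other genes changed sign too, since the median of epfl4 epfl6 against WT turned from -0.11 to 0.22. The cause was not tested. Leaving out 1 array gave 8 (without WT replicate 3) to 14 called in er-2 against WT, 15 to 20 in epfl4 epfl6 against WT, and 12 (without epfl4 epfl6 replicate 1) to 22 in er-2 against epfl4 epfl6. The medians then ran from 0.07 to 0.25, from -0.17 to -0.00 and from 0.15 to 0.37, and all probe sets called from 3257 to 4069, 6264 to 7247 and 3324 to 4016. Quantile normalization gave 13, 22 and 25 chloroplast genes called and median centring 15, 18 and 16, with medians of 0.07, -0.19 and 0.28 and of 0.15, -0.06 and 0.23. Median centring moved the share of higher calls over all probe sets in epfl4 epfl6 against WT from 52.9% to 62.9%. With the replicate number as a block, the counts were 13, 18 and 18, all among the genes called without it (cemA and petB lost their call in er-2 against WT, and psbL and petB between the mutants), and 4367, 7449 and 4248 over all probe sets; correlations of same-numbered deviations ran from -0.193 to 0.289, so the numbers are not shown to pair the arrays.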

Other observations

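Chloroplast genes of the inverted repeat have 2 copies in the annotation and so fall outside the single-gene rule. Their 8 probe sets stand for rps12 (2 probe sets), rpl2, rpl23, rps7, ndhB, ycf1 and ycf2. rps7, a small-subunit ribosomal protein gene, read 12.83, 12.91 and 12.77 in WT, 12.79, 12.77 and 12.78 in er-2 and 12.23, 12.54 and 12.61 in epfl4 epfl6. In epfl4 epfl6 it differed from WT by -0.38 ± 0.093 (adjusted p = 0.0112), with all 3 arrays below WT and er-2, and stood 0.32 ± 0.093 lower there than in er-2 (adjusted p = 0.0378). It was the only one of the 8 called in any comparison. ndhB read 6.15, 5.05 and 7.14 on the er-2 arrays and ycf2 7.65, 6.88 and 8.40, so that er-2 replicate 2 was again the lowest and er-2 replicate 3 the highest.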
